A study of Danio rerio with 6 samples.

Results

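The genes described here are 10 regulators of the midbrain-hindbrain boundary (MHB), namely *otx2*, *gbx2*, *pax2a*, *pax2b*, *pax5*, *pax8*, *eng1b*, *eng2a*, *eng2b* and *fgf8a*. They were taken by name from the table of all detected genes, in which all 10 of 10 were found among 23025 names. All 10 also passed the filter on low counts that left 20463 genes for testing. The rule used gene names and no measured value, though the names were chosen with earlier results of these data known.

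The study used RNA sequencing to ask which transcripts depend on *gas6*, which encodes a secreted protein that activates TAM receptors, in the zebrafish hindbrain at 48 hours post fertilization (hpf). There were 3 libraries from homozygous *gas6* mutants (gas6-/-) and 3 from wildtype controls, and each was made from a pool of dissected hindbrains. Both groups carried Tg(olig2:EGFP)vu12, a reporter under the *olig2* promoter that made the hindbrain visible for dissection, and the mutants came from a line raised from 1 CRISPR/Cas9 founder whose several transmitted alleles shift the reading frame. Which allele these pools carried is not given in the sources used here. The study does not state whether the pools came from separate clutches, so p-values measure the spread between these libraries. In the paper's methods the mutants came from a homozygous line carrying the reporter, and the controls were embryos of the reporter line. Genotype therefore cannot be told apart from line and parentage here. In the text, *gas6* mutant library 1 and the like refer to the replicate numbers of the labels.

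The MHB, or isthmus, is a signaling center in the neural tube that patterns the midbrain in front of it and the cerebellum behind it. Its position is set where the domain of *otx2*, a homeobox gene of the forebrain and midbrain, meets that of *gbx2*, a homeobox gene of the anterior hindbrain. Transcription factors of the Pax2/5/8 and Engrailed families and the secreted factors Fgf8 and Wnt1 then maintain each other's expression there. Most of these genes are also used elsewhere in the embryo, for instance *otx2* in the eye, *pax2a* and *pax8* in the ear, kidney and hindbrain interneurons, and *eng2a* in jaw muscle.

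The libraries held 18376627 to 27025868 counts in *gas6* mutants and 21844559 to 24589101 in wildtype. Levels are in CPM, counts relative to library size after TMM scaling, which assumes most genes do not change. *gas6* itself had 105 to 153 counts in the mutant libraries, against 790 to 941 in wildtype, with a log2 fold change of -2.97 (edgeR adjusted p = 7.24e-08), in the direction the labels call for. As a check of the tissue, all 10 of 10 caudal hindbrain markers (Hox genes of paralogue groups 1 to 4, *egr2b* and *mafba*) were detected in every library, and their summed level was 809 to 903 CPM in *gas6* mutants and 964 to 1190 CPM in wildtype. Transcripts of forebrain, retina and lens were detected as well and differed between genotypes, with values given below. These are bulk measurements, in which fewer cells of a type and less RNA per cell cannot be told apart.

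In *gas6* mutant hindbrains, *otx2* was 4.61-fold and *eng2a* 1.88-fold higher than in wildtype, and the other 8 boundary genes did not pass the test. A gene was called at a Benjamini-Hochberg adjusted p-value under 0.05 in edgeR's quasi-likelihood test over all 20463 genes. By this rule 2 of the 10 boundary genes were called, both upward, beside 33.3% of all genes tested (16.7% higher and 16.6% lower in the mutants). No boundary gene was called lower. At an unadjusted p-value under 0.05 there were 4 higher and 2 lower, beside 44.2% of all genes tested in either direction, and DESeq2 called 1 gene lower, *eng1b*. Over the 10 genes the median log2 fold change was 0.27, beside 0.02 over all genes tested. The median size regardless of sign was 0.327, beside 0.309 over all genes. The levels of the 3 mutant and 3 wildtype libraries did not overlap for 5 of the 10 genes, beside 49% of all genes tested.

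**Figure D1:**
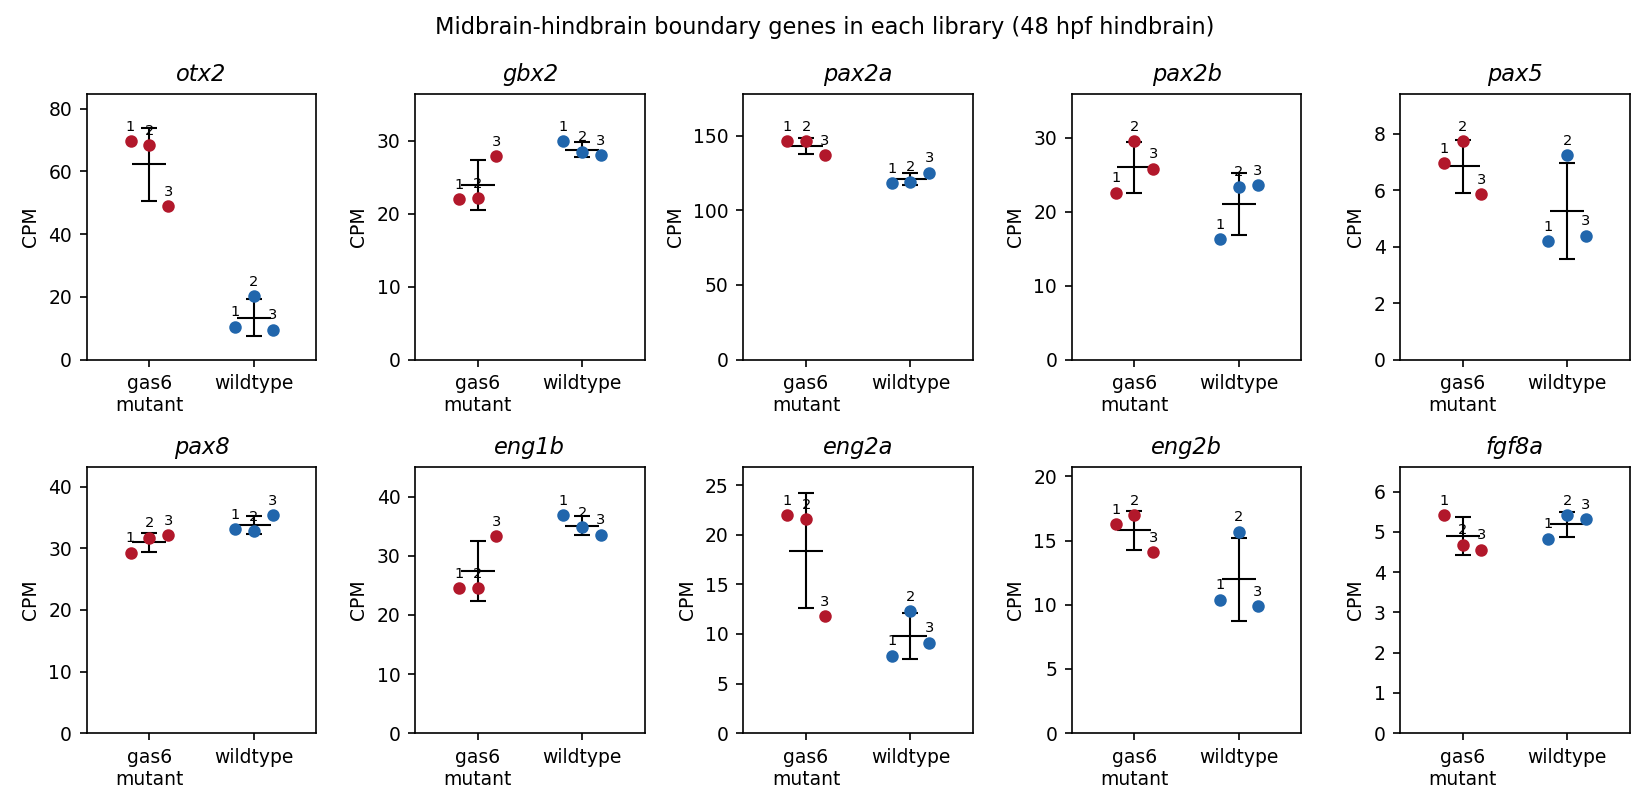
Level of each boundary gene in CPM (vertical axes, each starting at 0) in the 3 *gas6* mutant libraries (red) and the 3 wildtype libraries (blue), with the replicate number beside each point and the mean ± SD in black. *otx2* lies between 48.8 and 69.5 CPM in *gas6* mutants and between 9.51 and 20.3 CPM in wildtype, whereas the levels of *fgf8a* in the 2 genotypes overlap.

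The opposing pair that positions the boundary was considered first. *otx2* had 69.5, 68.3 and 48.8 CPM in *gas6* mutant libraries 1 to 3, against 10.5, 20.3 and 9.51 CPM in wildtype libraries 1 to 3. Every mutant library was above every wildtype library, and wildtype library 2 stood at 2.03 times the mean of the other wildtype libraries. The log2 fold change was 2.20 (SE 0.245, 95% interval 1.67 to 2.74, edgeR adjusted p = 5.51e-05). *otx2* was also the only boundary gene past a more than 2-fold change, beside 9.65% of all genes tested, and the only one called when the test was against a 2-fold change itself (glmTreat, adjusted p = 0.00186). Leaving out 1 library at a time gave log2 fold changes from 2.00 to 2.62, all of them called.

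*gbx2*, the hindbrain partner of *otx2*, had 22.0, 22.1 and 27.9 CPM in *gas6* mutants and 29.9, 28.5 and 28.0 CPM in wildtype. The groups did not overlap, but *gas6* mutant library 3 lay just under the lowest wildtype library. Its log2 fold change was -0.26 (SE 0.120, edgeR adjusted p = 0.109) and did not pass the test. Without *gas6* mutant library 3 the value was -0.39 and passed (edgeR adjusted p = 0.0315, within 0.0315 to 0.331 across 6 fits lacking 1 library each).

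To compare these genes without any scaling of libraries, ratios of counts were taken within each library. These ratios compare libraries and say nothing about which gene is more abundant, because transcript length was not taken into account. Counts of *otx2* divided by those of *gbx2* gave 3.16, 3.10 and 1.75 in *gas6* mutants and 0.350, 0.713 and 0.339 in wildtype, a 5.87-fold difference in the mean ratio on the log scale. The groups did not overlap, and the two-sided exact permutation p was 0.1, the smallest that 3 libraries against 3 can give. A total of 8 such ratios were formed after the values had been seen, and the Benjamini-Hochberg adjusted p over them was 0.2 for each.

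**Figure D2:**
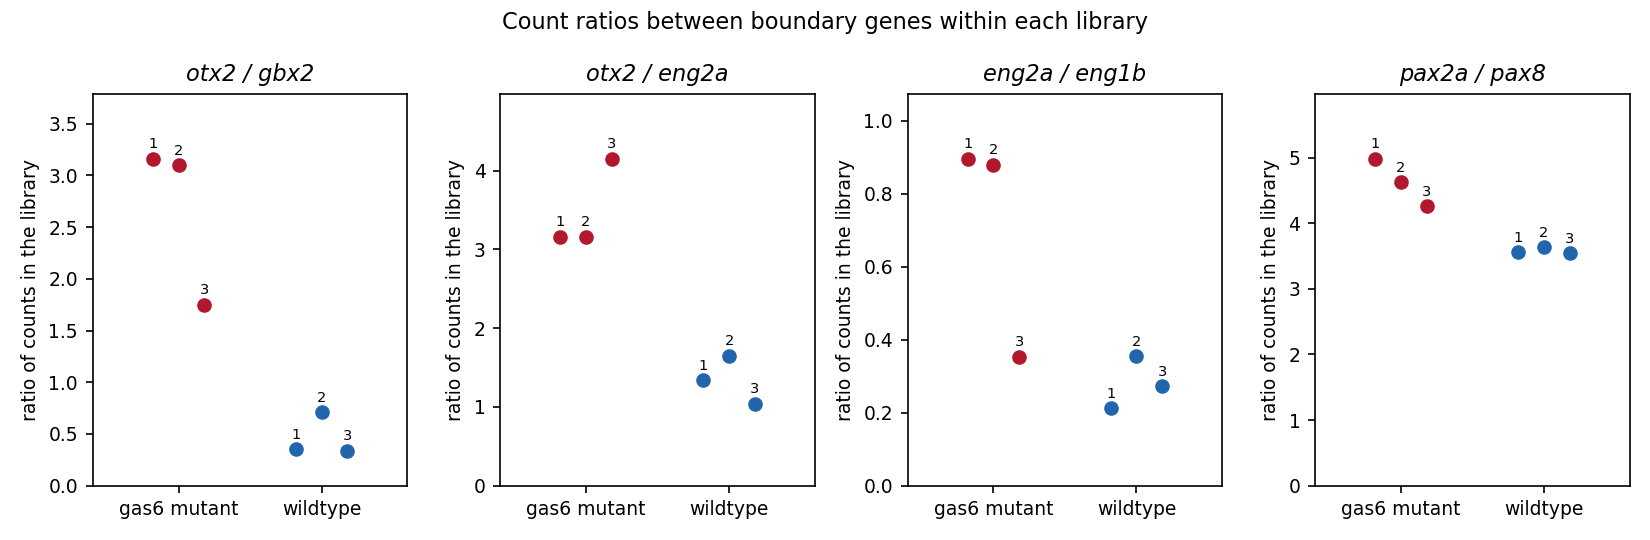
Ratio of counts of 2 boundary genes within each library (vertical axes, each starting at 0), for *gas6* mutant (red) and wildtype (blue) libraries, with the replicate number beside each point. The ratio of *otx2* to *gbx2* lies between 1.75 and 3.16 in *gas6* mutants and between 0.339 and 0.713 in wildtype, while for *eng2a* to *eng1b* mutant library 3 (0.353) falls just under wildtype library 2 (0.355).

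Genes of the Pax2/5/8 family, which encode paired-box transcription factors that act early in boundary formation, differed little between genotypes. *pax2a*, the gene disrupted in the *no isthmus* mutant, had 146, 146 and 137 CPM in *gas6* mutants and 118, 119 and 125 CPM in wildtype. The groups did not overlap and the spread within each was small, with means of 143 CPM ± 5.34 in mutants and 121 CPM ± 3.97 in wildtype (SD, n = 3 each). The log2 fold change of 0.24 (SE 0.0908, 95% interval 0.05 to 0.44) lay at the threshold (edgeR adjusted p = 0.0568) and passed under upper quartile scaling, total count scaling and a stricter count filter (edgeR adjusted p = 0.0299, 0.0115 and 0.0448, and 0.0115 to 1 among 8 alternative settings).

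*pax2b*, its duplicate, had 22.6, 29.5 and 25.8 CPM in *gas6* mutants and 16.3, 23.4 and 23.6 CPM in wildtype, and the groups overlapped (log2 fold change 0.30, SE 0.154, edgeR adjusted p = 0.151). *pax5*, which is expressed after *pax2a* at the boundary, had 6.95, 7.72 and 5.86 CPM in mutants and 4.19, 7.23 and 4.38 CPM in wildtype. Here wildtype library 2 was within the range of the mutants and stood at 1.69 times the mean of the other wildtype libraries. The log2 fold change of *pax5* was 0.37 (SE 0.215, edgeR adjusted p = 0.203), and without wildtype library 2 it was 0.66 and passed (edgeR adjusted p = 0.0219, within 0.0219 to 0.462 across 6 fits lacking 1 library each). 

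*pax8*, which in zebrafish also acts in the otic placode, pronephros and interneurons, had 29.3, 31.7 and 32.1 CPM in *gas6* mutants and 33.1, 32.8 and 35.4 CPM in wildtype. Its log2 fold change was -0.12 (95% interval -0.34 to 0.1, edgeR adjusted p = 0.376) and turned to 0.02 when libraries were scaled by total count alone. The ratio of *pax2a* to *pax8* counts was 4.98, 4.62 and 4.26 in mutants and 3.56, 3.63 and 3.54 in wildtype, without overlap (two-sided exact permutation p = 0.1, the smallest possible here).

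The Engrailed genes encode homeodomain repressors that maintain the midbrain and the boundary. Of those in the boundary set, only *eng2a* was called in edgeR. Ratios of *eng2a* or *eng2b* to *eng1b* counts overlapped between genotypes (two-sided exact permutation p = 0.2 for each). *eng2a* had 22.0, 21.6 and 11.8 CPM in *gas6* mutants and 7.83, 12.3 and 9.14 CPM in wildtype. Mutant libraries 1 and 2 were above all wildtype libraries, whereas mutant library 3 was under wildtype library 2, so the groups overlapped. *eng2a* rose by a log2 fold change of 0.91 (SE 0.230, 95% interval 0.41 to 1.41, edgeR adjusted p = 0.0101). It remained called in each of the 6 fits that left out 1 library, at log2 fold changes from 0.76 to 1.15 and adjusted p-values from 0.00131 to 0.0497.

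*eng2b* had 16.3, 17.0 and 14.1 CPM in mutants and 10.4, 15.7 and 9.88 CPM in wildtype. Again wildtype library 2 lay within the range of the mutants, and the log2 fold change of 0.40 (SE 0.173, edgeR adjusted p = 0.0966) did not pass. Without wildtype library 2 it was 0.63 and passed (edgeR adjusted p = 0.00801, within 0.00801 to 0.305 across 6 fits lacking 1 library each).

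*eng1b* had 24.5, 24.5 and 33.3 CPM in *gas6* mutants and 36.9, 34.8 and 33.6 CPM in wildtype. The groups did not overlap, but mutant library 3 was close to the lowest wildtype library. *eng1b* had a log2 fold change of -0.35 (SE 0.131, 95% interval -0.64 to -0.07, edgeR adjusted p = 0.0557). Without *gas6* mutant library 3 it was -0.52 and passed (edgeR adjusted p = 0.00849, within 0.00849 to 0.214 across 6 fits lacking 1 library each). The remaining Engrailed gene, *eng1a*, had 44, 95 and 84 counts in mutants and 52, 74 and 61 in wildtype, with a log2 fold change of 0.07 (SE 0.216, edgeR adjusted p = 0.829). Its sign was negative when *gas6* mutant library 2 or wildtype library 1 was left out, at -0.06 and -0.03.

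*fgf8a* encodes the Fgf8 ligand of the boundary and is the gene disrupted in *acerebellar* mutants. It had 5.42, 4.68 and 4.56 CPM in *gas6* mutants and 4.83, 5.42 and 5.31 CPM in wildtype, from 106 to 131 counts per library. The ranges overlapped almost completely. Its log2 fold change was -0.09 (SE 0.160, edgeR adjusted p = 0.694) and turned to 0.05 under total count scaling. The 95% interval of the log2 fold change ran from -0.44 to 0.26.

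**Figure D3:**
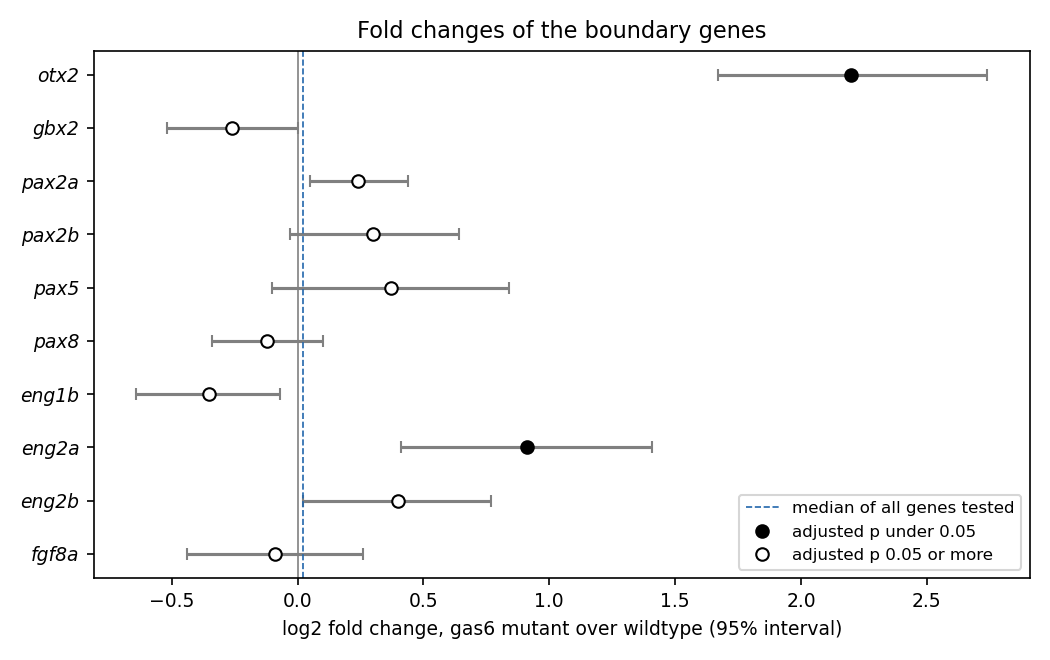
Log2 fold change of each boundary gene (horizontal axis, *gas6* mutant over wildtype) with its 95% interval, where filled points passed an adjusted p-value of 0.05 and the dashed line is the median of all genes tested. Only *otx2* (2.20) and *eng2a* (0.91) are filled. The unfilled values run from -0.35 for *eng1b* to 0.40 for *eng2b*, and those of *pax8* and *fgf8a* change sign under total count scaling.

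The libraries of 1 genotype also differed among themselves for some boundary genes. Wildtype libraries 1 to 3 were highest of their group for 2, 5 and 3 genes, and mutant libraries 1 to 3 for 3, 4 and 3. The matching shares over all genes are not given here. Among wildtype libraries, library 2 was highest for 5 of the 10 genes, with 2.03 times the mean of the other wildtype libraries for *otx2*, 1.69 times for *pax5*, 1.55 times for *eng2b* and 1.46 times for *eng2a*. For *eng1b*, *gbx2*, *pax2a* and *pax8* that figure lay between 0.958 and 0.988. Among *gas6* mutants, library 3 had 0.540 times the mean of the other mutant libraries for *eng2a* and 0.709 times for *otx2*, but 1.36 times for *eng1b* and 1.27 times for *gbx2*. For the remaining genes this figure lay between 0.8 (*pax5*) and 1.06 (*pax8*). Leaving out *gas6* mutant library 3 or wildtype library 2 raised the number of called boundary genes to 4 in each case. In those fits 26.9% and 30.7% of all genes tested were called. Leaving out any of the other libraries left the number at 2, beside 22.5% to 33.2% of all genes tested.

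Other genes of the boundary network were examined next, in lists grouped by role. Bulk levels do not show where in the tissue a listed gene changed. Counts of called genes in these and all later lists stand beside 33.3% of all genes tested (16.7% higher and 16.6% lower) in the main fit. Without *gas6* mutant libraries 1 to 3 in turn, the share of all genes called was 24.9%, 22.5% and 26.9%. Without wildtype libraries 1 to 3 it was 33.2%, 30.7% and 26.5%, and under total count scaling 33.4%. Of 9 ligands active at the isthmus, 3 fell and 1 rose (median log2 fold change -0.28, beside 0.02 over all genes tested). *wnt1*, the ligand on the midbrain side of the boundary, had 7, 9.08 and 6.7 CPM in *gas6* mutants and 13.8, 13.3 and 13.0 CPM in wildtype. All mutant libraries were well under all wildtype libraries (log2 fold change -0.81, SE 0.146, edgeR adjusted p = 0.0014), and the call held when any 1 library was left out. Among the FGF ligands, *fgf17* fell by 0.70 and *fgf18b* by 0.66 on the log2 scale (edgeR adjusted p = 0.0288 and 0.0123), from 43 to 131 counts per library for either gene. *fgf8b*, the duplicate of *fgf8a*, rose by 0.81 (SE 0.235, edgeR adjusted p = 0.0201, a call lost in DESeq2 and without *gas6* mutant library 2 or 3 or wildtype library 3) but had only 39, 74 and 67 counts in mutants and 25, 37 and 29 in wildtype. In this list 2 of 9 were called without *gas6* mutant library 2 or 3, beside 22.5% and 26.9% of all genes tested. Leaving out any other library gave 3 of 9. The call of *fgf17* was lost under total count scaling and without any one of the libraries except wildtype library 3.

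Of 13 further transcription factors of the boundary, 11 passed the filter, of which 5 fell and 1 rose (median log2 fold change -0.22). *her11* and *pou5f3* were too low to be tested. *irx1b*, a gene of the Iroquois family, showed the largest decrease of the list, at 18.9, 23.3 and 22.3 CPM in *gas6* mutants and 51.4, 33.2 and 39.1 CPM in wildtype (log2 fold change -0.94, SE 0.154, edgeR adjusted p = 0.000794). *gbx1*, the paralogue of *gbx2* that acts earlier in the zebrafish hindbrain, fell to 35.8 CPM ± 2.75 in mutants, against 50.2 CPM ± 9.89 in wildtype (SD, n = 3 each, log2 fold change -0.49, edgeR adjusted p = 0.0169). *lmx1bb*, which with its duplicate maintains *wnt1* and *fgf8a* at the isthmus, fell by 0.42 on the log2 scale (edgeR adjusted p = 0.0127), and *sp5l* fell by 0.64 (edgeR adjusted p = 0.0228). *otx1b* rose by 0.65 (edgeR adjusted p = 0.0126), in the same direction as *otx2*. *otx1a*, on the same list, did not pass the test (log2 fold change 0.35, edgeR adjusted p = 0.165). *her5*, which keeps boundary progenitors undifferentiated, had only 4 to 19 counts per library and a log2 fold change of 0.57 (SE 0.471, edgeR adjusted p = 0.373). The calls of *gbx1*, *lmx1bb* and *sp5l* were lost under total count scaling. When 1 library was left out, that of *gbx1* was lost without *gas6* mutant library 1 or 2, that of *lmx1bb* without *gas6* mutant library 2 or 3, that of *sp5l* without *gas6* mutant library 2 or 3 or wildtype library 1 or 3, and that of *otx1b* without *gas6* mutant library 2 or wildtype library 3. The number called in this list was 2 without *gas6* mutant library 2, 3 without *gas6* mutant library 3 or wildtype library 3 and 2 under total count scaling.

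Fgf8 at the boundary acts through the MAP kinase pathway and induces its own feedback inhibitors, so a list of 10 FGF feedback and target genes was set beside *fgf8a*. Of these, 2 fell, 1 rose and 7 did not pass (median log2 fold change -0.18), a share of calls near the 33.3% of all genes tested. The Ets factor *etv5b* had 77.5, 78.3 and 86.2 CPM in *gas6* mutants and 107, 106 and 117 CPM in wildtype, without overlap (log2 fold change -0.45, SE 0.0962, edgeR adjusted p = 0.00413). The related *etv5a* fell by 0.33 on the log2 scale (edgeR adjusted p = 0.0256), a call lost under total count scaling and without *gas6* mutant library 1 or 2 or wildtype library 3. *dusp2*, which encodes a MAP kinase phosphatase, rose to 6.39, 5.58 and 2.43 CPM in mutants, against 1.55, 2.10 and 1.12 CPM in wildtype (log2 fold change 1.57, SE 0.346, edgeR adjusted p = 0.00479). In this gene too, *gas6* mutant library 3 was the lowest of the mutants.

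**Figure D4:**
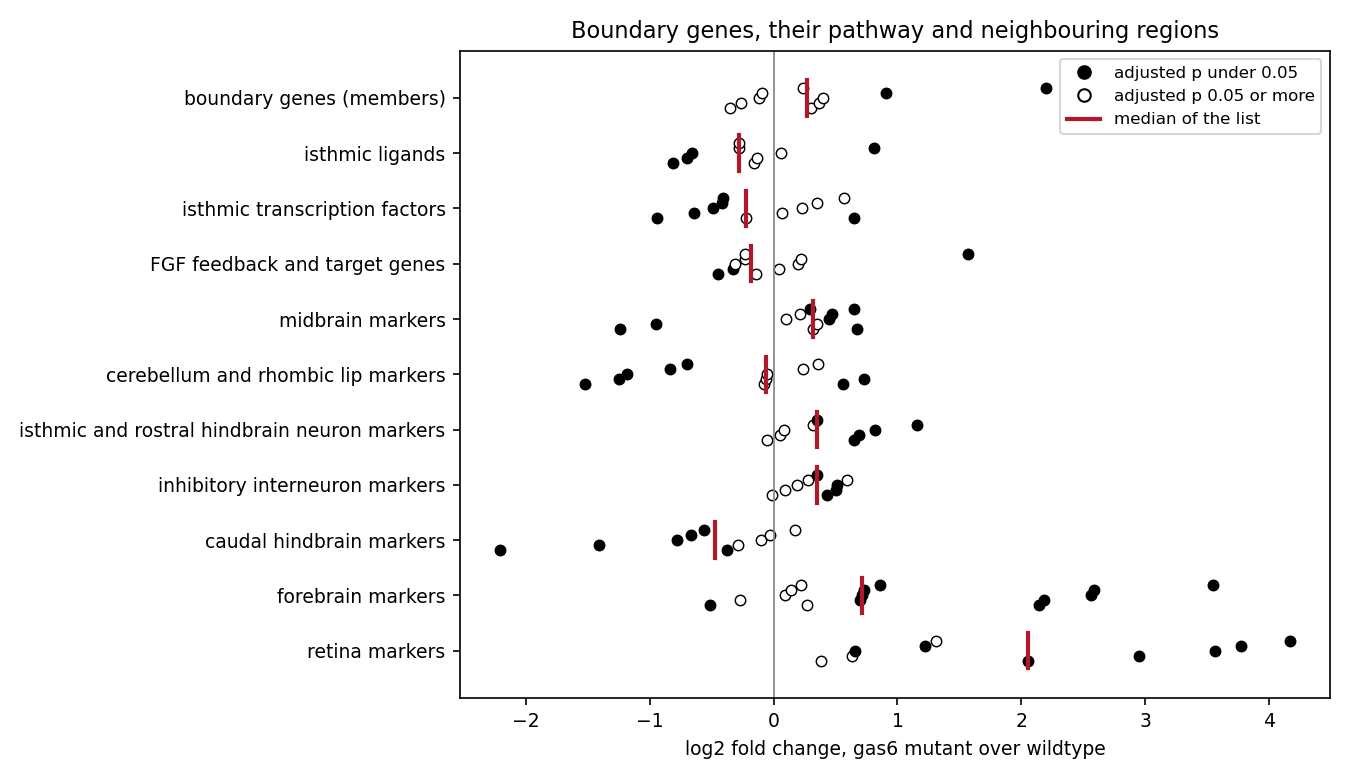
Log2 fold change (horizontal axis, *gas6* mutant over wildtype) of each tested gene in the boundary set, in its pathway lists and in marker lists of neighbouring regions, where filled points passed an adjusted p-value of 0.05 and the red bar is the median of the list. The medians run from -0.47 for caudal hindbrain markers to 2.05 for retina markers, with 0.27 for the boundary genes. *rho* and *atoh1c*, which had at most 3 counts in every wildtype library, are not drawn but count toward the medians.

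The 2 boundary genes that rose are also expressed in front of the boundary, so marker lists for the neighbouring regions were set beside them. Of 11 midbrain markers, 5 rose and 2 fell (median log2 fold change 0.32), and their summed level was 780 to 786 CPM in *gas6* mutants and 598 to 623 CPM in wildtype. Most of that sum came from *mab21l1* and *mab21l2*, which are also expressed in the eye. In an alternative chosen after the values were seen, the other 9 markers summed to 192, 209 and 189 CPM in *gas6* mutants and 204, 201 and 206 CPM in wildtype, and the groups overlapped. *mab21l1* rose to 241 CPM ± 10.3 in mutants, against 151 CPM ± 3.75 in wildtype (SD, n = 3 each, log2 fold change 0.67, edgeR adjusted p = 0.000222). *pax3a* and *pax7b*, which mark dorsal midbrain and also dorsal hindbrain and neural crest, fell by 1.24 and 0.95 on the log2 scale (edgeR adjusted p = 3.8e-06 and 0.000209). *otx1b* is on this list as well as on the list of boundary transcription factors. Without *gas6* mutant library 2 the number of midbrain markers called was 4.

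Of 15 forebrain markers tested, 9 rose and 1 fell (median log2 fold change 0.71), with a summed level of 543 to 625 CPM in mutants and 474 to 521 CPM in wildtype. *fezf2*, a forebrain transcription factor, had 97, 170 and 117 counts in *gas6* mutants and 0, 23 and 6 in wildtype. Of 11 retina markers tested, 8 rose and 0 fell in edgeR, with 0 lower also in DESeq2 and at an unadjusted p-value under 0.05 (median log2 fold change 2.05). Their summed level over 13 genes found was 191, 184 and 136 CPM in *gas6* mutants and 34.2, 55.1 and 39.6 CPM in wildtype, so that mutant library 3 was the lowest mutant and wildtype library 2 the highest wildtype library, as for *otx2*. *crx*, an Otx-family gene of photoreceptor precursors, had 55.4, 54.2 and 30.4 CPM in mutants and 1.37, 4.66 and 1.63 CPM in wildtype. The rod opsin gene *rho* was at 0 in every wildtype library and had 58, 62 and 36 counts in mutants. All 12 lens markers rose as well, with a summed level of 591, 768 and 1410 CPM in mutants and 2.23, 7.10 and 43.4 CPM in wildtype, and there mutant library 3 was the highest. The part of forebrain and eye tissue in the levels of *otx2* and *eng2a* was not tested.

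Markers on the hindbrain side of the boundary were considered in the same way. Of 10 caudal hindbrain markers, 6 fell and 0 rose in edgeR, with 0 higher also in DESeq2 and at an unadjusted p-value under 0.05 (median log2 fold change -0.47). Among mutants their summed level was highest, at 903 CPM, in *gas6* mutant library 3, the library in which *gbx2* and *eng1b* were also highest among mutants. In wildtype libraries 1 to 3 the sum was 1190, 964 and 1150 CPM, whereas *gbx2* and *eng1b* were highest in library 1 and lowest in library 3. The part of caudal hindbrain tissue in the levels of *gbx2* and *eng1b* was not tested. The rhombomere markers *egr2b* and *hoxb1a* fell by 2.21 and 1.41 on the log2 scale (edgeR adjusted p = 2.76e-05 and 3.5e-05). The study picked both from these libraries for RT-qPCR on separately collected tissue, so the values given here are not independent of that choice. The RT-qPCR data were not analysed here, but the paper reports that they bore out the changes seen by sequencing. By in situ hybridization of *gas6* mutant embryos, the paper detected no change in *hoxb1a*, *krox20* (*egr2b*) or, at the boundary, *pax2*. The paper's methods give earlier collection stages for in situ hybridization than that of the hindbrains sequenced here. Its imaging section also lists embryos of the sequenced stage and later, without naming their stain. Staining at the earlier stages does not test the falls of *egr2b* and *hoxb1a* at the sequenced stage. For *neurod6b*, *atoh1b* and *olig4*, picked from its sequencing results, the paper likewise saw no difference by in situ hybridization, with no stage given in the caption. It then concludes that the changes in hindbrain gene expression are too subtle for that method.

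The cerebellum develops from the hindbrain side of the boundary. Of 13 cerebellum and rhombic lip markers, 5 fell and 3 rose (median log2 fold change -0.06). *ptf1a* and *atoh1a*, which specify inhibitory and excitatory cerebellar precursors, fell by 1.52 and 1.25 on the log2 scale (edgeR adjusted p = 0.000267 and 9.02e-05), and both were likewise picked from these libraries for RT-qPCR on separately collected tissue, not analysed here. *lhx9* rose by 0.73 (edgeR adjusted p = 0.00185). *atoh1c* was called higher with 10, 15 and 15 counts in *gas6* mutants and 1, 3 and 3 in wildtype.

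Markers of neurons that form near the isthmus were set beside these. Of 9 markers of the raphe, locus coeruleus and other rostral neurons, 5 rose and 0 fell in edgeR, with 0 lower also in DESeq2 and at an unadjusted p-value under 0.05 (median log2 fold change 0.35). The serotonin transporter gene *slc6a4a* had 23.2, 25.6 and 26.8 CPM in *gas6* mutants and 9.11, 11.6 and 13.2 CPM in wildtype (log2 fold change 1.16, SE 0.142, edgeR adjusted p = 0.00011). *tph2*, the enzyme of serotonin synthesis, rose by 0.82 (edgeR adjusted p = 0.00362). In this list *dbh*, *phox2a*, *slc18a2* and *gata2a* were not called (log2 fold change 0.32, -0.05, 0.05 and 0.08). The number called was 3 without wildtype library 2 or 3.

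Among 9 markers of inhibitory interneurons, a cell type that expresses *pax2a*, *pax8* and *eng1b* in hindbrain and spinal cord, 4 rose and 0 fell in edgeR, with 0 lower also in DESeq2 and at an unadjusted p-value under 0.05 (median log2 fold change 0.35). *gad1b* and *gad2*, which encode enzymes of GABA synthesis, rose by 0.50 and 0.51 on the log2 scale (edgeR adjusted p = 0.00726 and 0.023), the call of *gad2* being lost without *gas6* mutant library 1 or 2 or wildtype library 1. The number called was 2 without *gas6* mutant library 1 or 2. The summed level was 757, 753 and 692 CPM in mutants and 585, 631 and 648 CPM in wildtype, with no overlap. *pax2a* was also higher in mutants without overlap, whereas *pax8* and *eng1b* were lower without overlap (log2 fold change -0.12 and -0.35, neither called in edgeR). Levels did not overlap for 49% of all genes tested. The part of these cells in the levels of *pax2a*, *pax8* and *eng1b* was not tested.

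Tissues outside the brain that use boundary genes were also represented in the libraries. Otic vesicle markers, a site of *pax2a* and *pax8*, summed to 542 to 661 CPM in *gas6* mutants and 595 to 708 CPM in wildtype, and of the 9 tested 2 rose and 1 fell. The otoconin gene *oc90* fell by 2.95 on the log2 scale (edgeR adjusted p = 7.89e-07), and *zpld1a* rose by 1.5 (edgeR adjusted p = 0.00205). Pronephros markers summed to 93.2 to 108 CPM in mutants and 88.6 to 110 CPM in wildtype, with 2 of 8 called, both higher, *cdh17* by 0.91 and *cubn* by 0.59 (edgeR adjusted p = 0.00109 and 0.0185). The number called was 1 without *gas6* mutant library 2 or wildtype library 3, where the call of *cubn* was lost. The shares called in the otic and pronephros lists were near or under the 33.3% of all genes tested. Of 6 thyroid markers listed, only 3 were found and 2 tested, too few to describe the tissue. Both tested genes rose, *tg* and *nkx2.4b* (log2 fold change 2.64 for *nkx2.4b*), and the 3 found summed to 10.6 to 14.3 CPM in mutants and 4.12 to 4.8 CPM in wildtype. Thyroglobulin (*tg*), made by the *pax2a*- and *pax8*-dependent thyroid, had 205, 263 and 198 counts in mutants and 91, 78 and 79 in wildtype (log2 fold change 1.28, edgeR adjusted p = 0.000312).

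Skeletal muscle, the site of *eng2a* in the jaw, contributed 16000, 18800 and 31500 CPM over 11 markers in *gas6* mutants and 20600, 19500 and 18400 CPM in wildtype. The sum was highest in *gas6* mutant library 3, in which *eng2a* was lowest among the mutants. Of the 11 markers 2 rose and 2 fell, with 2 called without *gas6* mutant library 1 or 2 or wildtype library 1 or 3, and the myogenic factor *myog* rose to 27.3 CPM ± 2.30 in mutants, against 12.6 CPM ± 0.937 in wildtype (SD, n = 3 each, log2 fold change 1.11, edgeR adjusted p = 3.83e-05). *smyhc1* and *desma* had log2 fold changes of -0.44 and -0.45 (edgeR adjusted p = 0.0122 and 0.0333). Across 6 fits lacking 1 library each, their edgeR adjusted p-values reached 0.061 and 0.133. The share of muscle markers called was near the 33.3% of all genes tested. The part of muscle cells in the level of *eng2a* was not tested.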

How the data were processed

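RNA from pooled hindbrains (48 hpf, 3 *gas6* mutant and 3 wildtype libraries) was sequenced as stranded mRNA libraries. The authors analysed reads through the Dolphin interface, and the submitters' processing notes name FastQC, RSEM 1.2.28 and DESeq2. Of the builds GRCz10 and danRer7 named there, the one used for counting is not given in the sources used here, so no coordinates are given. The authors deposited estimated counts per gene, without normalization, and these were whole in every library for 45.6% of genes. RSEM divides reads among similar genes. For the 10 boundary genes the deposited counts departed from whole numbers by at most 0.41. The table also holds the authors' log2 fold change, fold change and adjusted p-value, which were not used.

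Samples were grouped by title. Estimated counts were rounded, filtered with filterByExpr (minimum count 10, minimum total 15), scaled by TMM and tested with edgeR 4.0.16 (glmQLFit and glmQLFTest, R 4.3.3), genotype being the only factor. This tool was chosen here, as the study states only a more than 2-fold criterion. Benjamini-Hochberg adjustment ran over 20463 genes. Standard errors were derived from the F statistic, with 4 residual degrees of freedom per gene before moderation. The boundary genes and all lists were chosen with earlier results of these data known. Every boundary gene is named, as are *gas6* and, as examples from each list, genes among the 2 called per direction with the largest change, *eng1a*, *gbx1*, *fgf8b*, *wnt1*, *her5* and *lmx1bb*, and *fgf18b*, *fezf2*, *rho* and *atoh1c* as counts or further examples. Of the list of rostral neurons, the genes not called are named too. Names were matched exactly, by letter case or through older names in the RefSeq gene table (GRCz12tu assembly, in which *otx2* is listed as *otx2b* and *otx1b* as *otx1*). Alternatives were RLE, upper quartile and total count scaling, DESeq2 1.42.0, no filter and a minimum count of 50, glmTreat, a replicate block and leaving out each library. The fit was also run on simulated counts in which few genes changed, unlike here, so that run does not test the scaling assumption.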

Additional observations from a re-analysis of the deposited data

How the results depend on the processing

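*gas6* remained called (log2 fold change -2.98 to -2.82 in 8 alternative settings, and -3.04 to -2.86 in 6 fits lacking 1 library each). *otx2* was called in each of these 14 fits and *eng2a* in each except glmTreat. Of the 10 boundary genes, 4 were called under total count scaling (4 higher), beside 33.4% of all genes tested. Under glmTreat 1 was called (1 higher), beside 3.12%. When 1 library was left out, from 2 to 4 were called (from 2 to 4 higher, from 0 to 2 lower), beside 22.5% to 33.2%. DESeq2 called 2 higher and 1 lower, beside 28.1%. Under total count scaling *pax8* and *fgf8a* reversed to 0.02 and 0.05, and *eng1a* ranged from -0.06 to 0.21 when 1 library was left out, negative without *gas6* mutant library 2 (-0.06) or wildtype library 1 (-0.03). None of these 3 genes was called in any fit. That scaling moved the median log2 fold change of all genes from 0.016 to 0.162, and the share of higher calls from 50.3% to 70.6%, with 2013 genes called lower.

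Over all genes, glmTreat called 639 (383 higher, 256 lower), since it tests for a change beyond 2-fold, and 26 list genes (24 higher, 2 lower). A minimum count of 50 tested fewer genes and left 1116 called and more than 2-fold changed. Leaving out 1 library gave 4661 to 6919 called genes, of which 2396 to 3312 were higher and 2265 to 3607 lower. Libraries with the same replicate number did not deviate together (correlations across genes of 0.02, -0.06 and 0.04), and not every library correlated best with its own number. With the replicate block, 3 boundary genes and 6359 genes in all (31.1% of those tested) were called. With 3 libraries per genotype and a median SE of 0.154 on the log2 scale, changes as small as those of *pax8* or *fgf8a* could not be resolved.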

Other observations

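Among Otx-family genes outside the boundary set, *otx5*, which is expressed in the retina and pineal organ of zebrafish, was noticed after its values had been seen. It had 618, 847 and 637 counts in *gas6* mutants and 48, 92 and 41 in wildtype, with a log2 fold change of 3.40 (SE 0.226, edgeR adjusted p = 1.11e-06). Wildtype library 2 was again the highest wildtype library. *otx1a*, listed as *otx2a* in the RefSeq gene table, had 156, 196 and 196 counts in mutants and 110, 177 and 101 in wildtype, and did not pass the test (log2 fold change 0.35, edgeR adjusted p = 0.165).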
